A study of Mus musculus with 8 samples.

Results

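The loci described here were those of 10 genes of the actin cytoskeleton and the contractile apparatus, Acta2, Tagln, Cnn1, Cnn2, Myl9, Tpm1, Tpm2, Cald1, Actn1 and Lmod1, out of 21938 protein-coding genes. They were chosen by name with earlier results of these data known, as were the other gene lists and the comparisons. All ATAC-seq peaks that overlapped the gene body or the 50 kb to each side of it were taken, which gave 82 of 56514 peaks in MEFs, 44 of 36219 on day 5, 54 of 35226 on day 10 and 66 of 48486 in ESCs. ATAC-seq maps open chromatin through a transposase that cuts accessible DNA, and a peak is an interval in which such cuts pile up. MEFs were uninfected mouse embryonic fibroblasts. The day 5 and day 10 groups were MEFs infected with pMXs retroviruses for the reprogramming factors OCT4, SOX2, KLF4 and MYC (OSKM) together with a FLAG control vector, then kept in ESC medium with vitamin C. ESCs were uninfected embryonic stem cells. Each group had 2 libraries, and 1 peak list per group was deposited, so no spread between libraries could be computed and no difference between lists was tested. All groups were labelled Wildtype, and all libraries carried the strain label C57BL/6J-OG2, a line with an Oct4-GFP reporter transgene, except ESC replicate 1, which was labelled C57Bl6J. The labels placed ESCs on a feeder layer of growth-arrested MEFs, whereas the study's methods described gelatin without naming feeders. Those methods gave the ESCs a medium with LIF, CHIR99021 and PD0325901, whereas the ESC medium of the infected cultures contained serum. By those methods, contrasts with ESCs are also contrasts of medium. The infected cultures were mixed populations, and fewer cells with an open site and less accessibility per cell cannot be told apart in bulk samples.

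Stress fibres are bundles of actin filaments crosslinked by actinins, coated by tropomyosins, calponins and caldesmon, and pulled by myosin motors whose activity depends on their light chains. Fibroblasts build them on stiff culture dishes, and smooth muscle cells and myofibroblasts express many of the same genes at high levels. Many of these genes are transcribed by serum response factor (SRF), which binds the CArG box, a run of A and T between CC and GG, with myocardin or the actin-sensing MRTF proteins as partners. Among the factors that act at many fibroblast enhancers, TEAD proteins bind the word GGAATG. The word of AP-1 is TGANTCA.

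The 200 bases upstream of the most upstream start site are shown for 6 members, 1 for each arrangement of start-site peaks found below. Acta2 had a start-site peak in MEFs and on both days, Tpm2 in MEFs and on day 5, Cnn1 in MEFs alone, Lmod1 in MEFs and ESCs, Myl9 in all lists and Cnn2 in none. Sequences are from GRCm38.p6 and read 5′ to 3′ on the strand of the gene. Capitals mark a CArG box in Cnn2 and Myl9 and the TEAD word in Acta2 and Lmod1.
Acta2, chr19:34255591-34255790, minus strand: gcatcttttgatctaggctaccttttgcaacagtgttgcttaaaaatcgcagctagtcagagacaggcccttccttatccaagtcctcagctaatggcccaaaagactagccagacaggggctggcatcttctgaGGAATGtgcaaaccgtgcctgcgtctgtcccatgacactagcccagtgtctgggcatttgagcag
Tpm2, chr4:43523766-43523965, minus strand: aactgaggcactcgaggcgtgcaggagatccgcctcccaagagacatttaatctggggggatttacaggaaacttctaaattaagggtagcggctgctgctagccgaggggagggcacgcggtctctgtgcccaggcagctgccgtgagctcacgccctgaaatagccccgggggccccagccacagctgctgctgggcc
Cnn1, chr9:22099016-22099215, plus strand: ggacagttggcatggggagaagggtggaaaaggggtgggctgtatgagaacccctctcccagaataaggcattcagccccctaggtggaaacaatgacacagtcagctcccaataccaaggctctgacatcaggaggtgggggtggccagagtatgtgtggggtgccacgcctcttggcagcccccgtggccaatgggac
Lmod1, chr1:135324607-135324806, plus strand: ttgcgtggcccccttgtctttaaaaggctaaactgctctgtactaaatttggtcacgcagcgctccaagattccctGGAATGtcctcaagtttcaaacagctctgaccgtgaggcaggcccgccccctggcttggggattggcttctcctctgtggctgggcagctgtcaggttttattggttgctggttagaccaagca
Myl9, chr2:156775220-156775419, plus strand: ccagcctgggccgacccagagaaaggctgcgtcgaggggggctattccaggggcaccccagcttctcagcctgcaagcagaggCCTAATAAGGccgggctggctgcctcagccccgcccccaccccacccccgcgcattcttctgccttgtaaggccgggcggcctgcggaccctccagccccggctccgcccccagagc
Cnn2, chr10:79988384-79988583, plus strand: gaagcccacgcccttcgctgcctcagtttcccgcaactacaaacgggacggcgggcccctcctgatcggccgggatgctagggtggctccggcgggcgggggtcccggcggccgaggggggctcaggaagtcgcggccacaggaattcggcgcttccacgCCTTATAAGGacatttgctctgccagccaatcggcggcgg
Of the 10 members, 3 held a CArG box in this window, against 1.04% of the 21938 genes, and 3 held the TEAD word on either strand, against 9.07%. The CArG box lay 112 bases before the start of Tagln, 40 before that of Cnn2 and 117 before that of Myl9. The TEAD word lay 65 bases before the start of Acta2, 149 before that of Cald1 and 124 before that of Lmod1. AP-1 words were found in 0 of 10 members and in 4.81% of all genes. Only exact words were counted, so a CArG box with a G or C inside its run would be missed. Such matches describe the letters and do not show that a factor was bound. The members with a CArG box here included Myl9, with a start-site peak in all lists, and Cnn2, with a start-site peak in none. Tpm1, Cald1 and Actn1 also had a start-site peak in all lists and held no CArG box in this window.

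The labels were checked with 5 fibroblast genes (Prrx1, Twist2, Col1a1, Thy1 and Pdgfrb) and 5 stem cell genes (Esrrb, Dppa4, Zfp42, Tdgf1 and Nr0b1). All 5 fibroblast genes had more peaks in MEFs than in ESCs, and a start-site peak lay over 5 of them in MEFs, 3 on day 5, 1 on day 10 and 0 in ESCs. All 5 stem cell genes had more peaks in ESCs than in MEFs, with start-site peaks at 2, 0, 1 and 4 of them in the same order of lists. Tdgf1 went the other way at its start, with a peak in MEFs and on day 10 and none in ESCs. Esrrb had a start-site peak in MEFs and in ESCs. The lists hold no read numbers, which leaves the depth of the libraries unknown, and they differ in length. Intervals given below are 95% Wilson intervals and cover counting error only.

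In the lists as deposited, which differ in length, the contractile loci held the most peaks in MEFs and the fewest on day 5. Peaks covered 84228 bp of the 1394004 bp of windows in MEFs (6.04%), 34778 bp on day 5 (2.49%), 42739 bp on day 10 (3.07%) and 46489 bp in ESCs (3.33%). The median number of peaks per member was 8 in MEFs, 4 on day 5, 5.5 on day 10 and 6 in ESCs, against 5, 3, 3 and 4 over all protein-coding genes. Per 100 kb of window, the member medians were 6.25, 3.69, 4.23 and 4.95, and those of all genes 3.46, 2.10, 2.34 and 3.12. The members thus lay above the typical gene in every list, ESCs included, while their windows were of ordinary size, with a median of 112 kb against 117 kb. As a share of each list, the loci held 0.145% of MEF peaks, 0.121% of day 5 peaks, 0.153% of day 10 peaks and 0.136% of ESC peaks.

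More peaks in MEFs than in ESCs were found at 7 of 10 members, against 42.2% of all protein-coding genes. Those members were Acta2, Tagln, Cnn2, Tpm1, Tpm2, Cald1 and Lmod1. Cnn1 had equal numbers, and Myl9 and Actn1 had more in ESCs. The median difference was 1.5 peaks per member, against 0 over all genes. Against day 5, 8 of 10 members had more peaks in MEFs and 2 had equal numbers (Tagln and Myl9), with a background of 63.2%. From day 5 to day 10 the number was higher at 7 members, equal at Tpm2 and Lmod1 and lower at Actn1, against 33.0% of all protein-coding genes with more on day 10. When each list was limited to its 35226 highest-scoring peaks, the length of the shortest list, the loci held 56 peaks in MEFs, 42 on day 5, 54 on day 10 and 49 in ESCs. MEFs then stood close to day 10, and their surplus over ESCs was 7 in place of 16. The number of members with more peaks in MEFs than in ESCs was again 7. The share of all genes was not computed for lists of that length, so this count stands without a background.

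**Figure D1:**
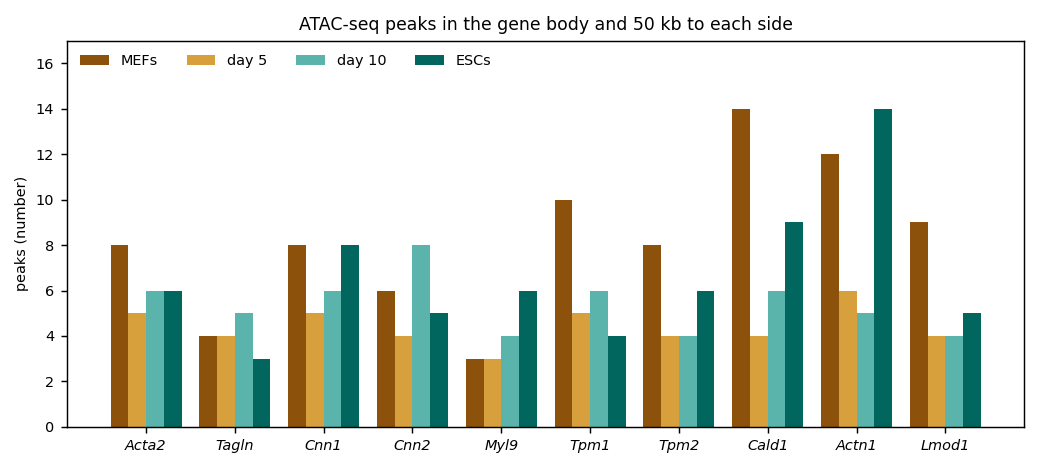
Number of ATAC-seq peaks (y axis) in the gene body and 50 kb to each side of each contractile gene (x axis), with 1 bar per peak list: MEFs, day 5, day 10 and ESCs. Cald1 and Actn1, the longest genes, have the most peaks in MEFs and in ESCs, with 14 in MEFs at Cald1 and 14 in ESCs at Actn1, and Cnn2 is highest on day 10 with 8. Each bar is 1 list, so there is no error bar.

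A start-site peak, one that covers the first base of any annotated transcript of the gene, was found at 9 of 10 members in MEFs (60.0% of all protein-coding genes), 7 on day 5 (52.1%), 6 on day 10 (56.0%) and 5 in ESCs (55.8%). Myl9, Tpm1, Cald1 and Actn1 had one in every list. Acta2, Tagln, Cnn1 and Tpm2 had one in MEFs and none in ESCs, which makes 4 of 10 members, against 7.75% of all protein-coding genes. Acta2 and Tagln still had theirs on day 5 and day 10, Tpm2 still had it on day 5 but not on day 10, and Cnn1 on neither day. Lmod1 had a start-site peak in MEFs and in ESCs and on neither day, and Cnn2 had none in any list. With lists of equal length, 4 members again had a start-site peak in MEFs and none in ESCs (9.38% of all genes). Acta2, Tagln and Tpm2 stayed among them, Cnn1 left because its MEF peak ranked too low, and Myl9 entered because its ESC peak did.

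Acta2 (ENSMUSG00000035783.9, chr19:34241090-34255590, minus strand) encodes the smooth muscle form of alpha-actin, a marker of myofibroblasts. Its window held 8 peaks in MEFs, 5 on day 5, 6 on day 10 and 6 in ESCs. The start-site peak was 1586 bp long in MEFs, 1383 bp on day 5 and 1272 bp on day 10, with fold enrichments of 3.82, 4.57 and 4.20 as deposited. Among the peaks of its list ordered by score, it ranked 5474 in MEFs, 1962 on day 5 and 3957 on day 10. The Acta2 promoter therefore remained among the higher-scoring peaks on both days, and no ESC peak overlapped it or the gene body. Its merged region, chr19:34254437-34256044, covered 301 bp of exon, 853 bp of intron and 454 bp upstream. A second peak inside the gene, in the region chr19:34244145-34244563, was present in MEFs and on day 10. The ESC peaks of the window lay elsewhere. The longest, of 1302 bp, lay in an intron of the neighbour Stambpl1 within the merged region chr19:34209040-34210858. Peaks of 370 bp on day 5 and 385 bp on day 10 lay in the same region just beyond the end of the ESC peak and did not overlap it, and MEFs had none there. A Stambpl1 intron held a region with peaks on both days alone (chr19:34195588-34196333), of 552 bp on day 5 and 642 bp on day 10. The start sites of Stambpl1 and Fas, genes of ubiquitin processing and cell death, were open in all 4 lists.

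Tagln (ENSMUSG00000032085.5, chr9:45929619-45936058, minus strand) encodes transgelin or SM22, an actin-binding protein of the calponin family. Its window held 4 peaks in MEFs, 4 on day 5, 5 on day 10 and 3 in ESCs. The start-site peak was 1758 bp in MEFs, 1447 bp on day 5 and 1197 bp on day 10, with fold enrichments of 2.84, 3.10 and 2.87. It ranked 19224, 29360 and 27096 by score, so it was a weaker peak than that of Acta2 in each of these lists. In MEFs it covered all 3 annotated start sites of Tagln, on day 5 it covered 2 and on day 10 only the most upstream one, at position 45936058. This peak was the only MEF-specific region of the window (chr9:45935392-45937149, with 254 bp of exon, 413 bp of intron and 1091 bp upstream). The other MEF and ESC peaks lay over the start sites of Pcsk7 and Rnf214, Sidt2 and Pafah1b2, which were open in all lists. A day 10 peak in an intron of Pcsk7 (chr9:45920417-45920898) had no counterpart in the other lists.

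Cnn1 (ENSMUSG00000001349.5, chr9:22099216-22109630, plus strand) encodes the calponin of smooth muscle, which binds actin and restrains myosin. Its window held 8 peaks in MEFs, 5 on day 5, 6 on day 10 and 8 in ESCs. The start-site peak was found in MEFs alone, at chr9:22098926-22099690, and it was a weak one, 765 bp long with a fold enrichment of 2.39 and a score of 18, at rank 50363 of 56514. It was absent with the stricter threshold of a −log10 q-value of at least 2. Of the 11 merged regions in this window, 6 were common to MEFs and ESCs, and 4 of those covered start sites of neighbours such as Zfp653, Ecsit, Elof1 and Pigyl. No peak of day 5, day 10 or ESCs overlapped the Cnn1 gene body. An intergenic region 45152 bp downstream of a Cnn1 start site (chr9:22149597-22150813) held an ESC peak of 667 bp and, beside it and without overlap, a day 5 peak of 507 bp. Of the 200 bp at the centre of its ESC peak, 96.0% was repeat sequence.

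Cnn2 (ENSMUSG00000004665.10, chr10:79988584-79996062, plus strand) encodes the calponin of non-muscle cells, which stabilises actin filaments. Its window held 6 peaks in MEFs, 4 on day 5, 8 on day 10 and 5 in ESCs, yet 0 peaks touched the gene body in any list. The nearest regions on either side (chr10:79984320-79986766 and chr10:79996136-79997999) had peaks in all 4 lists. Those of the second covered a start of Abca7 in every list, whereas in the first only the day 5 peak reached a start of the protein-coding gene Tmem259. The MEF-specific region with the most peak length summed over all lists lay over a start site of Arhgap45 (chr10:80019124-80020065). It was 942 bp in MEFs and 643 bp on day 10. Another (chr10:80033001-80034142) had more in MEFs, 1081 bp, and less on day 10, 286 bp. Cnn2 was the member with the most peaks on day 10, and 2 of those 8 lay in regions with no peak in any other list, in Arhgap45 (chr10:80025551-80026069) and over a start of Polr2e (chr10:80036920-80037399). The missing Cnn2 promoter peak was in all 4 lists alike and carries no difference between the groups.

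**Figure D2:**
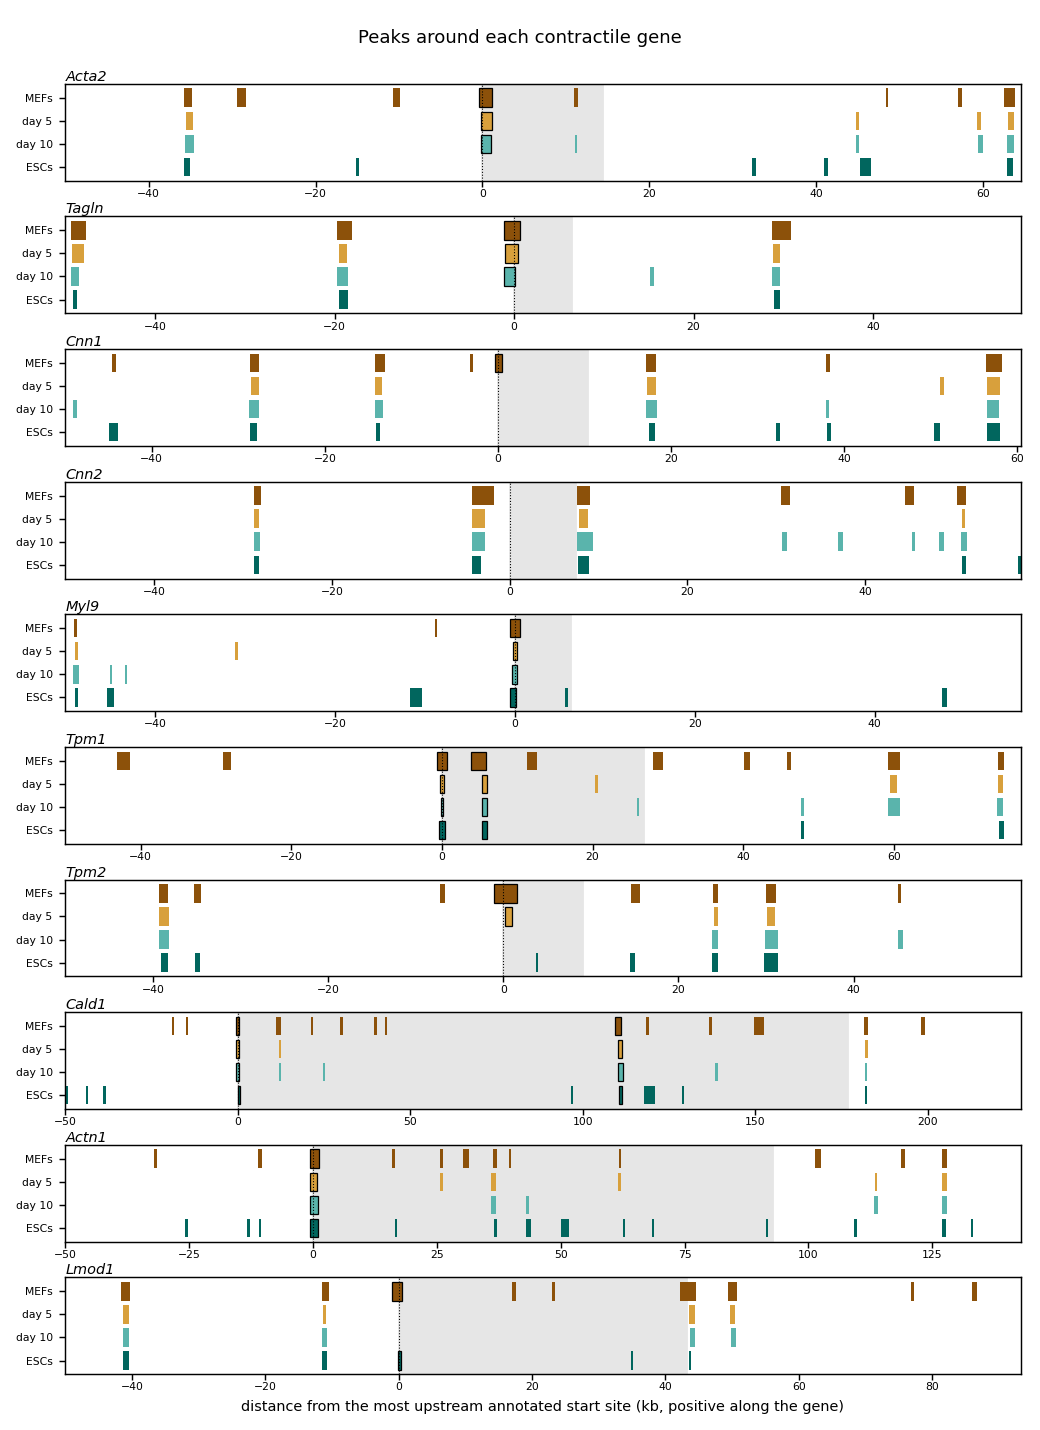
Peaks of the 4 lists around each contractile gene, drawn to scale as boxes along the distance in kb from the most upstream annotated start site (dotted line), positive along the gene. Grey shading is the gene body, and boxes with a black outline cover a start site of the gene itself. The outlined boxes are missing from the ESC row of Acta2, Tagln, Cnn1 and Tpm2 and from every row of Cnn2.

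Myl9 (ENSMUSG00000067818.6, chr2:156775420-156781658, plus strand) encodes the regulatory light chain of smooth muscle and non-muscle myosin. It was the member with the fewest peaks in MEFs, 3, with 3 on day 5, 4 on day 10 and 6 in ESCs. Its start-site peak was 1156 bp in MEFs, 465 bp on day 5, 608 bp on day 10 and 631 bp in ESCs, with fold enrichments of 3.87, 3.11, 3.09 and 3.16. By score it ranked 11082 in MEFs, 31916 on day 5, 28486 on day 10 and 36776 in ESCs. The promoter was thus open in every list and longest in MEFs. The ESC surplus came from 4 ESC-specific regions, which lay in the neighbour Dlgap4, inside Myl9 near its end (chr2:156780973-156781301) and downstream. The largest of them (chr2:156763704-156765086) was a 1383 bp ESC peak that covered 660 bp of exon of Dlgap4, a scaffold gene of synapses. The only MEF-specific region of the window was a 282 bp peak between both genes (chr2:156766527-156766808).

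Tpm1 (ENSMUSG00000032366.15, chr9:67022590-67049406, minus strand) encodes tropomyosins, coiled coils that lie along actin filaments, and it makes long and short isoforms from separate promoters. Its window held 10 peaks in MEFs, 5 on day 5, 6 on day 10 and 4 in ESCs, the largest surplus of MEFs over ESCs among the members, at 6. Both promoters were open in every list. At the upstream promoter (chr9:67048773-67050055) the peak was 1283 bp in MEFs, 551 bp on day 5, 364 bp on day 10 and 795 bp in ESCs. At the internal promoter (chr9:67043358-67045530) it was 1912 bp, 733 bp, 658 bp and 606 bp. In both places the MEF peak was the longest, and on day 10 the upstream peak no longer covered the 8 start sites from 67049118 to 67049213. Of the 13 regions in this window, 7 were MEF-specific, and none of these covered a start site. The MEF-specific region with the most peak length summed over all lists lay downstream of the gene (chr9:66988639-66990148). It kept peaks of 871 bp on day 5 and 1498 bp on day 10, against 1506 bp in MEFs. The other 6 had a peak in MEFs alone, the longest of 1759 bp (chr9:67090757-67092515).

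Tpm2 (ENSMUSG00000028464.16, chr4:43514711-43523765, minus strand) encodes a further tropomyosin. Its window held 8 peaks in MEFs, 4 on day 5, 4 on day 10 and 6 in ESCs. Its start-site peak in MEFs was the longest of all members, 2668 bp (chr4:43522183-43524850, with 546 bp of exon, 1037 bp of intron and 1085 bp upstream). On day 5 it was 784 bp long with a score of 15, at rank 35162 of 36219, and covered 3 of the 5 start sites of the cluster. No peak was left there on day 10 or in ESCs. The day 5 peak was absent with the stricter threshold of a −log10 q-value of at least 2. A 202 bp ESC peak in an intron (chr4:43519882-43520083) lay within 1 kb of a minor internal start site, so Tpm2 counted as open in ESCs only when a distance of 1 kb was allowed. The window also holds the start of Tln1, which encodes the actin linker talin and was open in all 4 lists.

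Cald1 (ENSMUSG00000029761.16, chr6:34598500-34775473, plus strand) encodes caldesmon, which blocks myosin on actin filaments, and is the longest of the 10 genes. Its window held 14 peaks in MEFs, 4 on day 5, 6 on day 10 and 9 in ESCs. The upstream promoter (chr6:34597946-34598991) had a peak of 922 bp in MEFs, 946 bp on day 5, 1046 bp on day 10 and 344 bp in ESCs. It was the only start-site region of the members that was shorter in MEFs than on both days. The ESC peak there left out the most upstream start sites and the CArG box 251 bases before the first of them. The internal promoter (chr6:34707889-34710170) had 1781 bp, 1090 bp, 1389 bp and 779 bp. A further group of start sites from 34745952 to 34764956 had no peak in any list. Close to it, in an intron, lay the longest MEF-specific region of the members (chr6:34748143-34750972), a single MEF peak of 2830 bp without counterpart. In all, 10 regions of the window were MEF-specific, the most of any member, and 1 of them (chr6:34609643-34611185, in the first part of the gene) was kept on both days. An intronic region common to MEFs and ESCs (chr6:34716317-34719481) had no peak on either day.

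Actn1 (ENSMUSG00000015143.15, chr12:80167547-80260371, minus strand) encodes the alpha-actinin of non-muscle cells, which crosslinks actin filaments and ties them to adhesion sites. Its window held 12 peaks in MEFs, 6 on day 5, 5 on day 10 and 14 in ESCs. The start-site peak (chr12:80259216-80260974) was 1759 bp in MEFs, 1311 bp on day 5, 1583 bp on day 10 and 1657 bp in ESCs. It ranked 1186 by score in MEFs, the highest of the members' start-site peaks, and it changed less in length from list to list than that of any other member open in all lists. Away from the promoter the lists differed more. The window held 9 ESC-specific and 7 MEF-specific regions. The widest ESC-specific one (chr12:80208607-80210215), in an intron, also covered a start site of the transcript Gm47767. The MEF-specific region with the most peak length (chr12:80228983-80230127) was a 1145 bp intronic peak found in MEFs alone. An intronic region open in all lists (chr12:80223181-80224477) was a further common site away from the start of Actn1. A region between genes (chr12:80146332-80147067) had peaks of 411 bp on day 5 and 736 bp on day 10 and none in MEFs or ESCs.

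Lmod1 (ENSMUSG00000048096.7, chr1:135324807-135368065, plus strand) encodes leiomodin, which nucleates actin filaments in smooth muscle. Its window held 9 peaks in MEFs, 4 on day 5, 4 on day 10 and 5 in ESCs. The start-site region (chr1:135323772-135325293) was 1522 bp in MEFs and 463 bp in ESCs, with no peak on either day. The MEF and ESC start-site peaks were both lost when each list was limited to 35226 peaks. A region at the end of the gene (chr1:135367052-135369324) was open in all 4 lists. Of the 5 MEF-specific regions, 4 had a peak in MEFs alone. The other, over a start of Shisa4 (chr1:135374246-135375537), had 1292 bp in MEFs, 731 bp on day 5 and 749 bp on day 10.

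**Figure D3:**
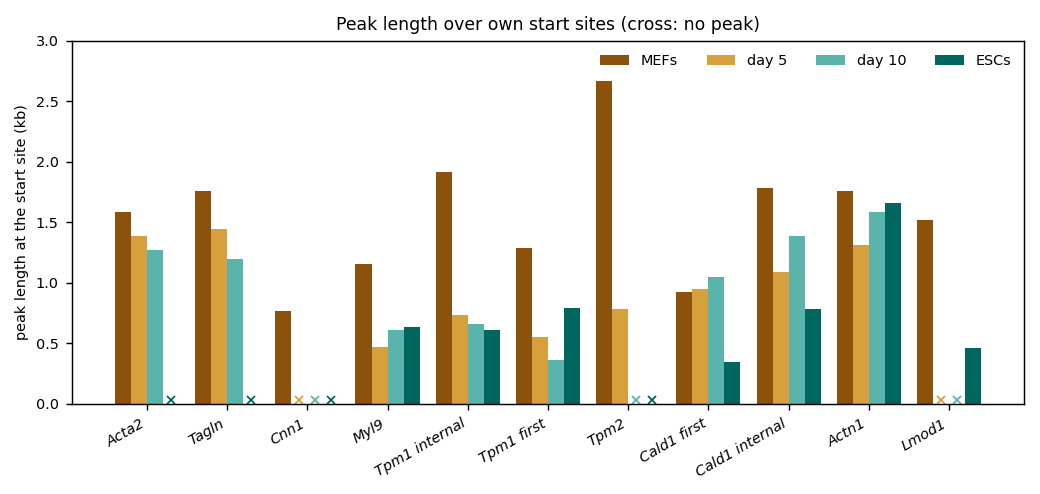
Length in kb (y axis) of the peaks over the start sites of each contractile gene (x axis) in MEFs, on day 5, on day 10 and in ESCs. Tpm1 and Cald1 are drawn at their first and internal promoters, Cnn2 had no start-site peak, and a cross marks a list without a peak. The MEF bar is the tallest at every promoter but the first one of Cald1, from 765 bp at Cnn1 to 2668 bp at Tpm2 among those.

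Start-site regions with a peak in both lists were longer in MEFs than on day 5 in 8 of 9 cases, against 90.2% of all such regions of protein-coding genes. Against day 10 they were longer in 7 of 8 cases (73.6%), and against ESCs in 7 of 7 (79.4%). The first of these shares was near its background, and the others stood little above theirs on 7 or 8 regions. The median lengths were 1758 bp in MEFs and 946 bp on day 5, 1672 bp and 1121.5 bp on day 10, and 1522 bp and 631 bp in ESCs. Over all such regions they were 1220 bp and 850 bp, 1205 bp and 1031 bp, and 1203 bp and 903 bp. Region by region, the median excess in MEFs was 691 bp over day 5, 470 bp over day 10 and 578 bp over ESCs at the members, against 323 bp, 152 bp and 265 bp over all such regions. Most start-site regions were longer in MEFs in either set, and the median excess was greater at the members.

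Peaks of the 4 lists within 400 bp were merged into 122 regions at the contractile loci, of 101701 in the genome. Common regions, with a peak in MEFs and in ESCs, made up 38 of them or 31.1% (23.6% to 39.8%), against 19.1% of all regions. MEF-specific regions, with a peak in MEFs and none in ESCs, were 44 or 36.1% (28.1% to 44.9%), against 36.4%. ESC-specific regions were 28 or 23.0% (16.4% to 31.2%), against 28.4%. Transient regions, with peaks on day 5 or day 10 alone, were 12 or 9.84% (5.72% to 16.4%), against 16.1%. The share of MEF-specific regions was close to that of the genome, whereas common regions took a larger share. Of the 38 common regions, 23 covered start sites of neighbouring genes and not of a member, 7 covered a start site of a member and 8 covered none. With peaks over other genes' start sites left out, 15 common and 40 MEF-specific regions remained.

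Regions open in MEFs and not in ESCs lay mostly away from start sites, as did the MEF peaks of the whole list, 42345 of 56514. Of the 44, 4 covered the start site of Acta2, Tagln, Cnn1 or Tpm2, 4 that of another gene and 36 none. Of those 36, 14 lay in the member's own gene, 5 in another gene and 17 between genes. The share away from start sites was not computed over all MEF-specific regions. On day 5, 8 of the 44 had a peak, or 18.2% (9.51% to 32.0%), against 14.2% of all MEF-specific regions, and on day 10, 9 had one, or 20.5% (11.2% to 34.5%), against 14.8%. These intervals include the genome-wide shares. At 32 of the 44 there was no peak on either day. That share was not computed over all MEF-specific regions, so this count stands without a background. The 5 kept on both days were the starts of Acta2, Tagln and Shisa4, the region downstream of Tpm1 and the intronic region of Cald1.

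Of the 28 ESC-specific regions, 2 held a day 5 peak (7.14%, 1.98% to 22.6%, against 10.7%) and 4 a day 10 peak (14.3%, 5.70% to 31.5%, against 12.6%). None covered a start site of a member, and 23 had no peak on either day, a count for which no share over all ESC-specific regions was computed. The day 5 peaks, in the Stambpl1 intron near Acta2 and downstream of Cnn1, were joined to the ESC peak by the merging distance and did not overlap it. Where the ESC peak itself had to be overlapped, an alternative chosen after seeing the data, day 5 gave 0 of 28, against 10.1% of all ESC-specific regions. A count of 0 of 28 allows a share of up to 10.7%, taken as 3 divided by 28 and not as a Wilson limit. Day 10 gave 3, near Myl9, Tpm1 and Actn1, or 10.7%, against 12.1%. These regions were named after their values were seen. The counts of MEF-specific regions, 8 and 9, did not depend on this. Of the 12 transient regions, 8 were found on day 10 alone, 2 on day 5 alone and 2 on both days. In the genome the order of the days was the other way round, since 78.7% of transient regions had a peak on day 5 and 63.8% on day 10, against 4 (33.3%, 13.8% to 60.9%) and 10 (83.3%, 55.2% to 95.3%) of the 12 here. With only overlapping or touching peaks merged, the counts were 6 (42.9%) and 11 (78.6%) of 14, against 78.2% and 63.8%. Several of the 8 peaks found on day 10 alone were weak. Those in Pcsk7 near Tagln, in Arhgap45 near Cnn2 and the 2 in Cald1 had −log10 q-values of 1.43 to 1.73. The others were above 2.

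**Figure D4:**
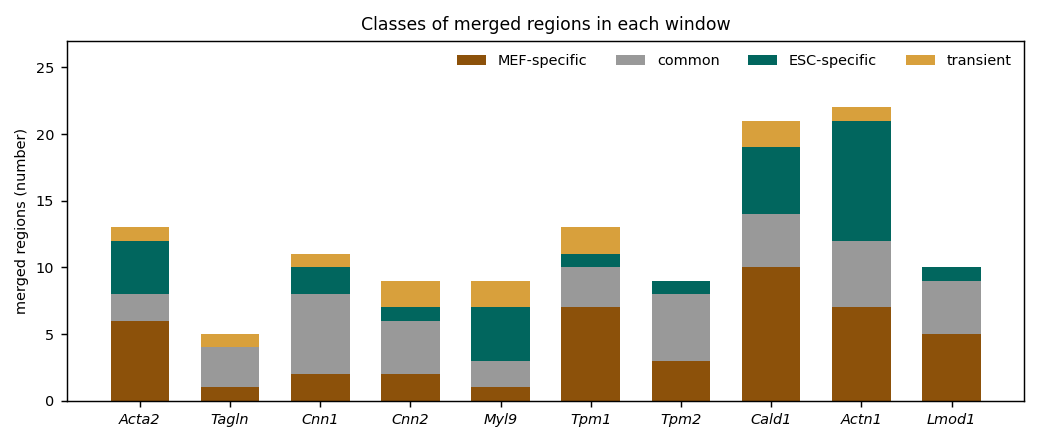
Number of merged regions (y axis) of each class in the window of each contractile gene (x axis): MEF-specific, common, ESC-specific and transient. MEF-specific regions are most numerous at Cald1 (10), Tpm1 (7) and Actn1 (7), ESC-specific regions at Actn1 (9), and common regions at Cnn1 (6).

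Of the 82 MEF peaks at these loci, 38 overlapped a day 5 peak (46.3%, 36.0% to 57.1%), 40 a day 10 peak (48.8%, 38.3% to 59.4%) and 37 an ESC peak (45.1%, 34.8% to 55.9%). Over all MEF peaks the shares were 34.9%, 36.7% and 33.3%. Split by start sites, the neighbours' included, the members lay near the whole list. Of the 38 MEF peaks over any start site, 31 were present on day 5 (81.6%), 31 on day 10 (81.6%) and 30 in ESCs (78.9%), against 83.4%, 86.9% and 84.2% of all MEF peaks over a start site. Of the 44 others, 7 (15.9%), 9 (20.5%) and 7 (15.9%) were, against 18.6%, 19.8% and 16.3%. The higher overall shares at the members thus went with their larger proportion of peaks over start sites, 38 of 82 against 14169 of 56514. Without the peaks over other genes' start sites, the shares of MEF peaks present were 29.1% on day 5, 30.9% on day 10 and 25.5% in ESCs. In the other direction, 38 of the 44 day 5 peaks (86.4%, 73.3% to 93.6%) and 40 of the 54 day 10 peaks (74.1%, 61.1% to 83.9%) overlapped a MEF peak, against 54.7% and 58.9% over the whole lists. Over start sites, 31 of 31 day 5 peaks and 31 of 32 day 10 peaks did so (96.8% and 95.6% over the whole lists). Away from them, 7 of 13 on day 5 (53.8%) and 9 of 22 on day 10 (40.9%) did, against 34.9% and 38.5%.

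Exact words for SRF, AP-1 and TEAD were counted on both strands in the 200 bp at the centre of the widest peak of each region. CArG boxes were found in 3 of the 44 MEF-specific regions (6.82%, 2.35% to 18.2%), against 1.17% of all MEF-specific regions. AP-1 words were found in 15 (34.1%, 21.9% to 48.9%), against 29.4%, and TEAD words in 2 (4.55%, 1.26% to 15.1%), against 18.1%. Over whole regions, the shares were 13.6% against 4.11% for the CArG box, 56.8% against 57.9% for AP-1 and 43.2% against 44.4% for TEAD, so the low TEAD share held for the central 200 bp only. Among the 28 ESC-specific regions the central counts were 0 for the CArG box, 1 for AP-1 and 3 for TEAD, against 0.991%, 6.43% and 16.4%.

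In whole regions, 14 CArG boxes lay in 13 of the 122 regions (10.7%), against 4.02% of all regions. Counted inside the peaks themselves, there were 11.9 per 100 kb in MEFs, 11.5 on day 5, 9.36 on day 10 and 12.9 in ESCs, against 5.09, 4.79, 4.61 and 4.51 over the whole lists. The density was therefore above that of the list in all 4 lists, on 10, 4, 4 and 6 matches. Of the 14 matches, 5 lay in a MEF peak alone, at Acta2, Tpm1, Tpm2, Actn1 and Lmod1, and 4 in an ESC peak alone, at Cald1 and Actn1. The remaining 5 were the pair at the Tagln start (at 45936038 and 45936161), in MEFs and on both days, the Myl9 promoter in all lists, the Cald1 upstream promoter in MEFs and on both days, and a second start of Tln1 near Tpm2 in MEFs and ESCs. The MEF-only matches and the one at Cald1 are shown with 9 bases to each side, on the strand of the gene, with the CArG box in capitals. The matches at Tpm2 and Cald1 lay 623 and 251 bases before the most upstream start. Those at Acta2 and Tpm1 lay 10253 and 28981 bases before it, and that at Lmod1 23130 bases after it, in the gene. The Actn1 match lay beyond the end of the gene. These were chosen for display after their values were seen.
Acta2, chr19:34265825-34265852, minus strand: gctgccttcCCTTATAAGGttaaggttc
Tpm1, chr9:67078369-67078396, minus strand: cccagaatgCCAAATAAGGtgatggtgt
Tpm2, chr4:43524370-43524397, minus strand: ggaaacatcCCAAAAAAGGgcagaaaag
Actn1, chr12:80141386-80141413, minus strand: aggttttctCCATAATAGGcagctgaag
Lmod1, chr1:135347928-135347955, plus strand: ctggtttctCCAAAAATGGggcttgcaa
Cald1, chr6:34598240-34598267, plus strand: ttaggataaCCAAAAAAGGgcatggagc
The Acta2 box at this distal site had the same letters, CCTTATAAGG, as that of the Cnn2 promoter above, which had no peak in any list.

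A further 37 genes of the contractile apparatus and its SRF pathway were counted the same way. More peaks in MEFs than in ESCs were found at 28 (42.2% of all protein-coding genes), equal numbers at 2 and more in ESCs at 7. Against day 5, 35 of 37 had more peaks in MEFs (63.2%). The median per gene was 7 in MEFs and 5 in each of the other lists. A start-site peak was found at 30 genes in MEFs (60.0% of all genes), 27 on day 5 (52.1%), 29 on day 10 (56.0%) and 28 in ESCs (55.8%), and only Csrp1 and Tgfb1i1 had one in MEFs and none in ESCs. A start-site peak in MEFs and none in ESCs was thus found at 4 of the 10 members and at 2 of these 37 genes, against 7.75% of all genes. The largest surplus in MEFs was at Mrtfa, which encodes the actin-sensing partner of SRF, with 18 peaks in MEFs, 3 on day 5, 3 on day 10 and 5 in ESCs. It was followed by Filip1l, with 23, 11, 8 and 13 peaks, and Vcl, which encodes the adhesion protein vinculin, with 13, 6, 6 and 5. The other regulators had 15, 9, 7 and 8 peaks at Mrtfb, 8, 3, 3 and 3 at Srf and 9, 6, 3 and 5 at Myocd, the gene of myocardin. All 4 regulators had a start-site peak in every list. The largest surplus in ESCs was at Ppp1r12a, which encodes the targeting subunit of myosin phosphatase, with 9, 8, 6 and 16 peaks, then Lmod3 with 4, 6, 6 and 7, and Myl6 and Pfn1, tied at 2 more in ESCs than in MEFs.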

How the data were processed

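The 8 ATAC-seq libraries were grouped by their titles. Reads were aligned by the authors to mm10 using Bowtie2 with very sensitive settings (version 2.2.0 in the submitters' processing notes, another version in the methods). Poorly mapped reads were removed, with thresholds that differ between labels and methods, as were multiply mapped and mitochondrial reads. The peak caller is not given in the sources used here. The authors deposited 1 list per group, named as an intersection, with peak names of replicate 1. Each peak carried a deposited score (10 times the −log10 q-value without decimals), a deposited fold enrichment (a ratio) and its −log10 q-value as deposited by the authors. A further column of p-values was not used. Fold enrichment and score seem to belong to the whole replicate 1 peak. Scores were ranked only within a list, and fold enrichments printed for several lists are not to be compared between them. No column belonged to another series (0 columns).

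Peaks were counted at a gene when they overlapped its body or the 50 kb to each side by at least 1 bp, and each peak was counted once in the sums over members. Genes, exons and start sites (67 distinct ones for the members) came from GENCODE, release M21, and sequence from GRCm38.p6. Regions were peaks of all lists merged within 400 bp, a distance also used in the study. Named regions were those over a member's start site, the MEF-specific region with the most peak length and the widest ESC-specific and transient region of each member. Peak length was summed over all lists for this choice, which favours MEF-specific regions that keep peaks on day 5 or day 10. Others were named after their values were seen. The members, gene lists and comparisons were chosen with earlier results of these data known. No differences were tested, because each group had 1 list. The counting steps were tested on simulated data. Python 3.11.15, pandas 2.3.3, numpy 2.4.6, scipy 1.17.1, pysam 0.24.0 and matplotlib 3.10.9 were used. Alternatives covered the window, the overlap rule, the peak threshold, equal list lengths, start sites, the merge distance and the motif window.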

Additional observations from a re-analysis of the deposited data

How the results depend on the processing

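Of 147 values recomputed under 15 settings for 25 results, 98 were classed as close to the reported value and 49 as moved. The class of close values was wide, since 55 MEF peaks with 25 kb to each side, in place of 82, belonged to it. Only the surplus of MEFs over ESCs could change sign, because the other results were counts or shares. That surplus stayed positive under the settings run for it, between 7 and 33 peaks. With 10 kb to each side, the loci held 42 peaks in MEFs, 20 on day 5, 22 on day 10 and 26 in ESCs, with 26 MEF-specific, 10 ESC-specific, 16 common and 5 transient regions. With 25 kb, there were 27 peaks on day 5, 31 on day 10 and 40 in ESCs, and 17 ESC-specific, 23 common and 6 transient regions. With 100 kb, there were 134, 71, 85 and 101 peaks, a surplus of 33 in MEFs over ESCs, and 76 MEF-specific, 43 ESC-specific, 58 common and 22 transient regions. The higher-scoring 50% of each list gave 50, 23, 31 and 32 peaks, start-site peaks at 4 members on day 5 and 2 in ESCs, and 29 MEF-specific, 11 ESC-specific, 21 common and 5 transient regions. With lists of equal length, the surplus of MEFs over ESCs was 7 peaks, and 60.7% of MEF peaks were present on day 5 and 62.5% on day 10. With those lists, 3 members had a start-site peak in ESCs, against 50.5% of all genes. Without peaks over other genes' start sites, 22 peaks were left on day 5, 30 on day 10 and 42 in ESCs, 29.1%, 30.9% and 25.5% of MEF peaks were present in those lists, and 15 regions were common. Requiring an overlap of 50% of both peaks lowered the shares to 32.9% on day 5 and 29.3% in ESCs. Where the peak of a day had to overlap the ESC peak itself, a setting added after seeing the data, 0 in place of 2 ESC-specific regions had a peak on day 5. Over whole regions, 56.8% of MEF-specific regions held an AP-1 word and 43.2% the TEAD word. Fewer peaks or other windows enter these settings by their construction. The number of members with more peaks in MEFs than in ESCs was 7 or 8 under the 8 settings run for it. The share of all genes with more peaks in MEFs was not recomputed under those settings. The number of members with a start-site peak in MEFs and none in ESCs lay between 3 and 5 under the 5 run for it. Shares of all genes with start-site peaks were computed only for the lists as deposited and for lists of equal length. Counts under the other settings stand without a background.

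No paired analysis was possible because both libraries of a group were deposited as a single list. Leaving out a replicate was not run for the same reason. Peaks of low score, such as those at the starts of Cnn1 in MEFs and Tpm2 on day 5, sit close to the threshold of the lists, and the unknown depth limits what their absence elsewhere says.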
